A study of Mus musculus with 4 samples.

Results

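MHC class II molecules are cell-surface dimers of an alpha and a beta chain that show peptides from endosomes to CD4 T cells. The invariant chain, encoded by Cd74, guards the empty groove of a newly made dimer, and the H2-DM dimer later exchanges the remnant of that chain for peptide. Ciita is the coactivator that switches these genes on, by default in dendritic cells, B cells and activated macrophages, and under interferon gamma in other cells, among them the intestinal epithelium. The 7 genes of the pathway named below were followed here: the classical chains H2-Aa, H2-Ab1 and H2-Eb1, the exchange factor chains H2-DMa and H2-DMb1, Cd74 and Ciita. They were chosen by symbol, and all 7 were found among the 44788 gene rows of the count table.

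The table held 4 libraries of colon tissue RNA from mice of C57BL/6 background, 1 library per group. Wild-type (WT) mice and mice labelled Card9-/- were either left untreated (day 0) or given AOM/DSS, in which the mutagen azoxymethane (10 mg/kg on day 1) is followed by 3 cycles of 7 days of dextran sulfate sodium (2%, 36-50 kDa) in the drinking water from 5 days later, with collection on day 100. No untreated library was collected on day 100, so treatment and collection day cannot be told apart in any comparison of AOM/DSS with untreated. No group had a replicate, the number of animals behind a library is not given in the sources used here, and the intervals below cover counting error only. Levels are library-scaled counts (CPM) after TMM scaling, which corrects library totals of 23022885 to 27706567 counts for differences in composition.

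Card9, an adaptor of myeloid cells that carries fungal signals to NF-kB, gave reads throughout: 44 in untreated WT, 69 in the untreated library labelled knockout, 116 in WT AOM/DSS and 245 in the AOM/DSS library labelled knockout. In CPM, Card9 was thus higher in each library labelled knockout than in WT of the same treatment. The levels were 3.18 against 1.75 CPM untreated and 7.73 against 5.32 CPM after AOM/DSS. Counts per gene do not show which parts of the gene were read, so the genotype was not settled. The label is used below as a name. The AOM/DSS library labelled knockout also stood apart, with a correlation of 0.798 to 0.829 with the others on the log2 scale across 15152 genes, against 0.933 to 0.947 among the other 3. Colon markers were present but unequal. Hoxb13, a homeobox gene of the distal gut, had levels of 0.0397 (untreated) and 0.0459 CPM (AOM/DSS) in the WT libraries, against 329.7 and 109 CPM in the corresponding libraries labelled knockout. Hoxa13, of the same kind, had 1.31 and 0.688 CPM against 33.1 and 12.5 CPM. Genotype label and colon segment cannot be told apart in any comparison across the label. The summed level of 8 mature colonocyte markers was 12844 CPM in untreated WT, 6116 in the untreated library labelled knockout, 9784 in WT AOM/DSS and 1026 in the AOM/DSS library labelled knockout. Between the untreated libraries these markers went both ways, with a median log2(CPM + 1) ratio of -0.03, label over WT. Car1 stood at 7654 CPM in WT and 857 under the label, and Cyp2c55 at 1684 and 218. Car4 stood at 209 and 1103 CPM, Slc26a3 at 134 and 674, and Aqp8 at 37.1 and 448. The remaining markers were within 2-fold.

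Of the 7 genes, 5 lie within 197 kb of chromosome 17 (34119541 to 34316674, GRCm38), in the order H2-DMa, H2-DMb1, H2-Ab1, H2-Aa and H2-Eb1. Ciita lies on chromosome 16 (10480059 to 10528418), and Cd74 outside both. Class II genes of another kind are interleaved with them: H2-DMb2 ends 1516 bases before H2-DMb1 starts, H2-Ob lies between H2-DMb1 and H2-Ab1, H2-Eb2 follows H2-Eb1, and H2-Oa precedes H2-DMa. H2-Oa and H2-Ob encode the H2-O dimer, an inhibitor of H2-DM that is made mainly by B cells. Class II promoters are known for an X box, bound by the RFX complex, and a Y box, bound by NF-Y, on which Ciita is assembled. The 140 bases before a RefSeq transcript start, as the promoter table gives it (GRCm38.p6), are shown for 3 of the 7 genes and for H2-Ob and H2-DMb2, neighbours whose levels took another course, with same-strand matches in capitals to the X box letters (AG, any 2 bases, AC, any 2 bases, AT) and to the Y box letters ATTGG, from chr17:34287824-34287963 (minus strand), chr17:34305727-34305866, chr17:34153051-34153190, chr17:34238765-34238904 and chr17:34145109-34145248 (plus strand).
H2-Aa: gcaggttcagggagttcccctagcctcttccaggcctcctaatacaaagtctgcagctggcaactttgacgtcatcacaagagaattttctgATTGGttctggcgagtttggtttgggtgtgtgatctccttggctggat
H2-Eb1: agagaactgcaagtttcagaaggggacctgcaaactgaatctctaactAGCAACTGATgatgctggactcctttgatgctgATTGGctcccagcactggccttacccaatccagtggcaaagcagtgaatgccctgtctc
H2-DMb1: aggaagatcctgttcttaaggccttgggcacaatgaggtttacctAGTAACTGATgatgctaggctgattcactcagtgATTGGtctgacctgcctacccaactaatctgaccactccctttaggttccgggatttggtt
H2-Ob: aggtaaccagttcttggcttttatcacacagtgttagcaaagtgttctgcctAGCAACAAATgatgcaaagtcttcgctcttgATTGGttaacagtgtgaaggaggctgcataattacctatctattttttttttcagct
H2-DMb2: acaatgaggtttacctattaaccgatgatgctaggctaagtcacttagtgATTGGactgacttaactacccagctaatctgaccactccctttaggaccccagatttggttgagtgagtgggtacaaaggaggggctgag

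The table's start for H2-DMb2 lies inside the RefSeq gene, which begins at 34143229, and those for H2-DMa and H2-Eb2 also lie inside their genes, so these windows need not be the main promoter. Sequences of 300 bases, 250 before to 50 after the start, were searched on both strands. An X box followed on the same strand by a Y box that starts 10 to 40 bases on was found in H2-Eb1 (33 bases on), H2-DMb1 (34), H2-Ob (31) and H2-Eb2 (33), and in 0.271% of 32851 promoters. The X box letters alone occurred in 9.89% of all promoters and the Y box letters in 37.4%. H2-Aa and H2-DMb2 held the Y box letters, starting 48 and 90 bases before the table's start (for H2-DMb2 the internal one), and no X box letters in the window. H2-Oa held both too far apart for the rule, and neither of the 2 windows of H2-DMa held the X box letters. The search took exact letters, so a window without a match may still hold an X box that departs from them. In H2-DMb2 the printed stretch attaaccgat misses the X box letters by 1 base. H2-Ab1, Cd74 and Ciita have no entry in the table. The interferon motifs searched, TTCNNNGAA (GAS, in 8.30% of promoters) and the ISRE (GAAA, any 2 bases, GAAA, 3.44%), and the E box CACGTG (7.15%) were not found in the windows of the 4 members that the table holds; H2-DMb2 held 1 GAS match. The paired boxes were thus present both in members, which were highest in the AOM/DSS library labelled knockout, and in H2-Ob, which was lowest there.

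The classical chains were the most abundant members beside Cd74, and each was highest in the AOM/DSS library labelled knockout. H2-Aa, the alpha chain of I-A, stood at 287 CPM in untreated WT, 251 in the untreated library labelled knockout, 302 in WT AOM/DSS and 1410.1 in the AOM/DSS library labelled knockout. H2-Ab1, its beta chain, stood at 226, 335, 193 and 802 CPM in the same order of libraries. The untreated library labelled knockout was thus second for H2-Ab1 and last for H2-Aa. H2-Eb1, the beta chain of I-E, followed H2-Ab1 at 203, 283, 149.9 and 537 CPM. C57BL/6 mice make no I-E because its alpha chain gene, here H2-Ea-ps, is defective, and this gene had 2, 1, 0 and 0 counts, at or below the 3 counts that a count of 0 allows. H2-Eb1 was therefore counted in all 4 libraries almost without reads from the partner gene.

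H2-DMa, the alpha chain of the exchange factor, stood at 14.2, 18.4, 21.8 and 74.7 CPM, and H2-DMb1, its beta chain, at 11.2, 15.6, 17.8 and 63.1 CPM. The DM chains shared 1 order of libraries, in which untreated WT was lowest and WT AOM/DSS second highest. Per kilobase of principal transcript (GENCODE), the ratio of H2-DMa to H2-DMb1 was 1.07 (95% counting interval 0.917 to 1.26), 1.00 (0.865 to 1.16), 1.04 (0.904 to 1.19) and 1.00 (0.944 to 1.06), so it did not differ between libraries beyond counting error. The ratio of H2-Aa to H2-Ab1 on the same scale did, at 1.36 (1.32 to 1.41), 0.804 (0.776 to 0.832), 1.68 (1.62 to 1.75) and 1.89 (1.86 to 1.92). The untreated library labelled knockout was the 1 library in which H2-Aa lay below H2-Ab1. H2-DMa overlaps Brd2 on the other strand and, per length, these chains are compared on the assumption that reads of both were counted alike; H2-DMb1 and H2-DMb2 are close copies, so reads may be divided between them.

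Cd74, the invariant chain, stood at 439, 804, 473 and 1657 CPM and was the most abundant member in CPM in every library. Per kilobase, Cd74 led in 3 libraries, while in the AOM/DSS library labelled knockout H2-Aa led, at 1250.1 CPM per kilobase against 1175. Ciita, the coactivator, stood at 11.6, 27.9, 24.5 and 69.5 CPM, lowest in untreated WT. Both other libraries held over 2-fold its untreated WT level, although H2-Aa and Cd74 in WT AOM/DSS were near theirs. Ciita overlaps Dexi, a gene on the other strand with 263 to 379 counts per library, and the counting of strand is not given in the sources used here.

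**Figure D1:**
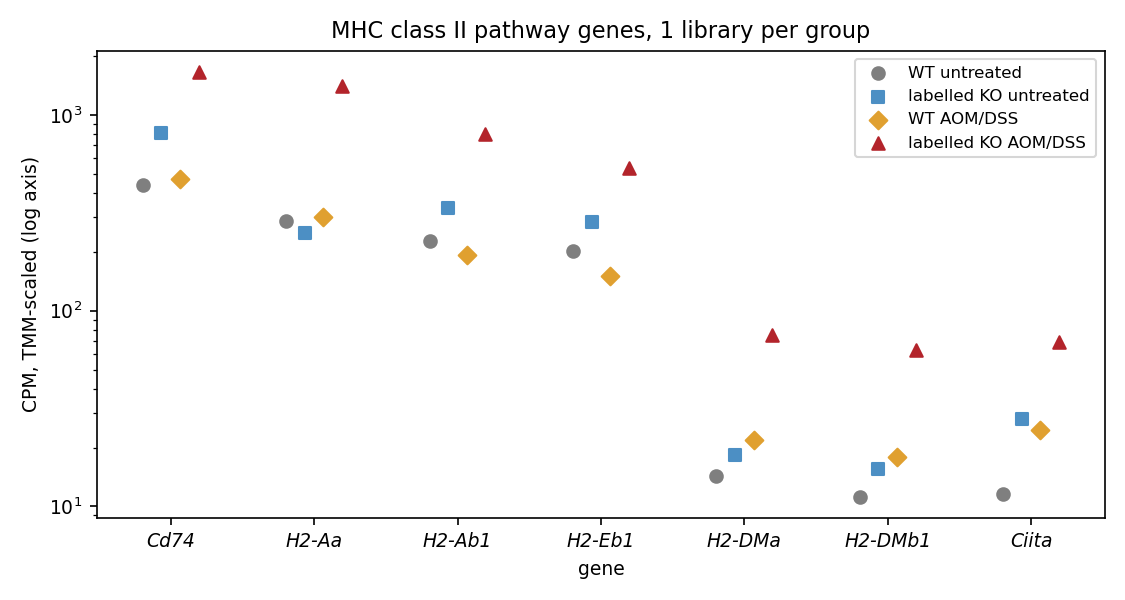
Level of each of the 7 genes in CPM after TMM scaling (vertical log axis), with 1 point per library. The AOM/DSS library labelled knockout is the highest point for every gene, and the other 3 libraries change order from gene to gene.

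In WT, AOM/DSS and untreated colon differed little in these genes. Cd74 was 1.08-fold higher after AOM/DSS (95% counting interval 1.05 to 1.11) and H2-Aa 1.05-fold higher (1.02 to 1.09). H2-Ab1 was 1.17-fold lower (1.13 to 1.22) and H2-Eb1 1.35-fold lower (1.29 to 1.41), while H2-DMa and H2-DMb1 were 1.53-fold and 1.59-fold higher. Ciita was 2.11-fold higher (1.83 to 2.44). The rule of size used here asks for a ratio of at least 2-fold on the log2(CPM + 1) scale and for 50 counts or more in whichever library is higher, and the pseudocount understates the difference of low genes. Of the 7 genes, 1 was higher by that rule and 0 lower, where 4.08% of 15356 genes were higher and 3.88% lower. The median log2 ratio of the 7 was 0.11, against 0.02 over all genes, and Ciita had a log2 ratio of 1.02, just past the threshold. With DESeq2 size factors, with plain library totals or with 5 CPM as pseudocount, 0 of the 7 passed.

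In the libraries labelled knockout, all 7 genes were higher after AOM/DSS. H2-Aa was 5.63-fold higher (5.47 to 5.79), H2-DMa and H2-DMb1 both 4.06-fold, Ciita 2.49-fold, H2-Ab1 2.39-fold and Cd74 2.06-fold. H2-Eb1, at 1.90-fold (1.84 to 1.95), stayed under the rule. By that rule 6 of 7 were higher and 0 lower, where 14.1% of 15900 genes were higher and 15.9% lower (20.6% and 11.5% when scaled by library totals). Upper-quartile factors left 5 of 7, with Cd74 at a log2 ratio of 0.99, and library totals gave 7 of 7, with H2-Eb1 at 1.22. The median log2 ratio of the 7 was 1.29, against 0.03 over all genes.

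Among untreated libraries, the label was above WT for 6 of the 7 genes, mostly by less than 2-fold. Ciita was 2.40-fold higher (2.09 to 2.77), Cd74 1.83-fold (1.79 to 1.88), H2-Ab1 1.48-fold, H2-Eb1 1.40-fold, H2-DMb1 1.39-fold and H2-DMa 1.29-fold. H2-Aa went the other way, 1.15-fold lower (1.11 to 1.19). The rule counted 1 of 7 as higher, Ciita, and 0 as lower, where 4.46% of 15352 genes were higher and 3.37% lower. With a pseudocount of 5 CPM, 0 passed. The median log2 ratio was 0.48, against -0.01 over all genes.

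After AOM/DSS, the library labelled knockout was above WT for all 7. H2-Aa was 4.67-fold higher (4.55 to 4.79), H2-Ab1 4.16-fold (4.03 to 4.30), H2-Eb1 3.58-fold, H2-DMb1 3.54-fold, Cd74 3.51-fold, H2-DMa 3.42-fold and Ciita 2.83-fold (2.58 to 3.12). Every member passed the size rule, where 11.9% of 15779 genes were higher and 12.4% lower (16.8% and 9.36% by library totals). The members' log2 ratios ran from 1.47 to 2.22 with a median of 1.81, against 0.03 over all genes, which is the narrowest range of the 4 pairs.

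**Figure D2:**
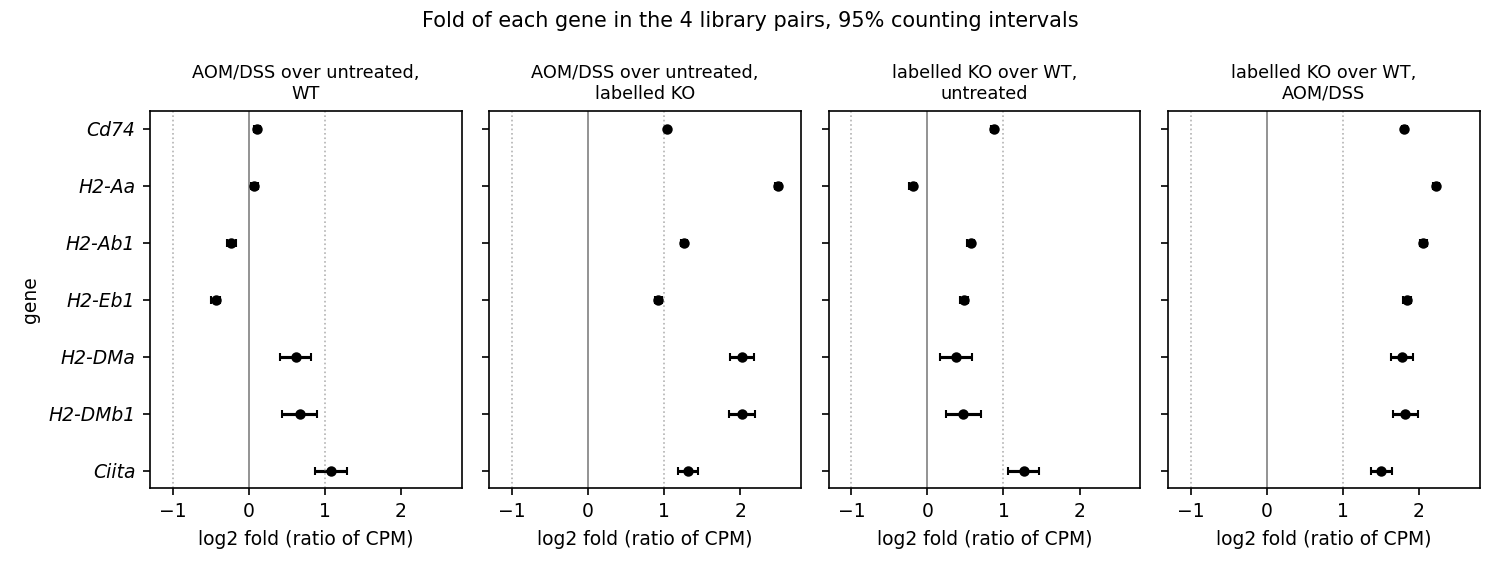
Log2 ratio of CPM for each of the 7 genes in the 4 pairs of libraries, with 95% counting intervals as bars and 2-fold marked by dotted lines. In the AOM/DSS pair every gene lies past 2-fold, and in the untreated pair H2-Aa lies below 0.

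An additive model of label and treatment over the 4 libraries, fitted with edgeR's quasi-likelihood test on 18973 genes, left 1 residual degree of freedom. None of the 7 genes passed an adjusted p of 0.05 (edgeR, Benjamini-Hochberg). Adjusted p ran from 0.736 to 0.967 for treatment and was 1.0 for the label, with log2 folds of 0.24 to 1.34 and 1.02 to 1.39. The fit called 0 genes of all for either term (0.0%), with 1148 (6.05%) and 746 (3.93%) at an unadjusted p under 0.05, while DESeq2 called 336 (1.83% of 18314) and 255 (1.39%) and again 0 of the 7. This fit counts any difference of the responses between the labels as error.

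Other genes of the class II locus took a different course. H2-Ob stood at 4.84 CPM in untreated WT, 17.2 in the untreated library labelled knockout, 20.8 in WT AOM/DSS and 2.97 in the AOM/DSS library labelled knockout. H2-Oa, its partner, stood at 1.19, 5.29, 6.69 and 2.18 CPM. H2-Eb2, a beta chain gene of the I-E region, stood at 0.873, 4.79, 6.79 and 2.90 CPM, and H2-DMb2, the copy of H2-DMb1, at 2.98, 8.88, 11.7 and 7.95 CPM. All 4 were highest in WT AOM/DSS and lowest, apart from H2-Ob, in untreated WT. In the AOM/DSS pair, where the 7 genes were all higher under the label, H2-Ob was 7.02-fold lower (5.61 to 8.86), H2-Oa 3.07-fold lower (2.29 to 4.15), H2-Eb2 2.34-fold lower (1.79 to 3.06) and H2-DMb2 1.47-fold lower (1.23 to 1.76). Of 4 genes measured, 2 were lower by the size rule and 0 higher, where 12.4% of 15779 genes were lower and 11.9% higher. H2-Eb2 missed the rule with a log2(CPM + 1) ratio of -0.996.

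The 2 courses differed within pairs of copies and partners. Per kilobase, H2-DMb1 was 3.83-fold above H2-DMb2 in untreated WT (2.96 to 5.00), 1.78-fold in the untreated library labelled knockout (1.48 to 2.13), 1.55-fold in WT AOM/DSS (1.32 to 1.82) and 8.05-fold in the AOM/DSS library labelled knockout (7.05 to 9.21). The ratio of H2-O counts (H2-Oa plus H2-Ob) to H2-DM counts (H2-DMa plus H2-DMb1) was 0.237, 0.663, 0.694 and 0.0373 in the same order. The inhibitor chains were thus lowest against the exchange factor in the AOM/DSS library labelled knockout. B cell markers moved with them: the summed level of 9 such genes was 12.8, 127, 162 and 26.5 CPM, and all 9 were past the rule in the same direction in each pair, lower in both pairs that hold the AOM/DSS library labelled knockout and higher in the other 2. The shares of all genes past the rule in each pair are given above with the 7 members. No B cell marker was at 0 in any library. The part of these markers in the levels of H2-Oa, H2-Ob, H2-Eb2 and H2-DMb2 was not tested.

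**Figure D3:**
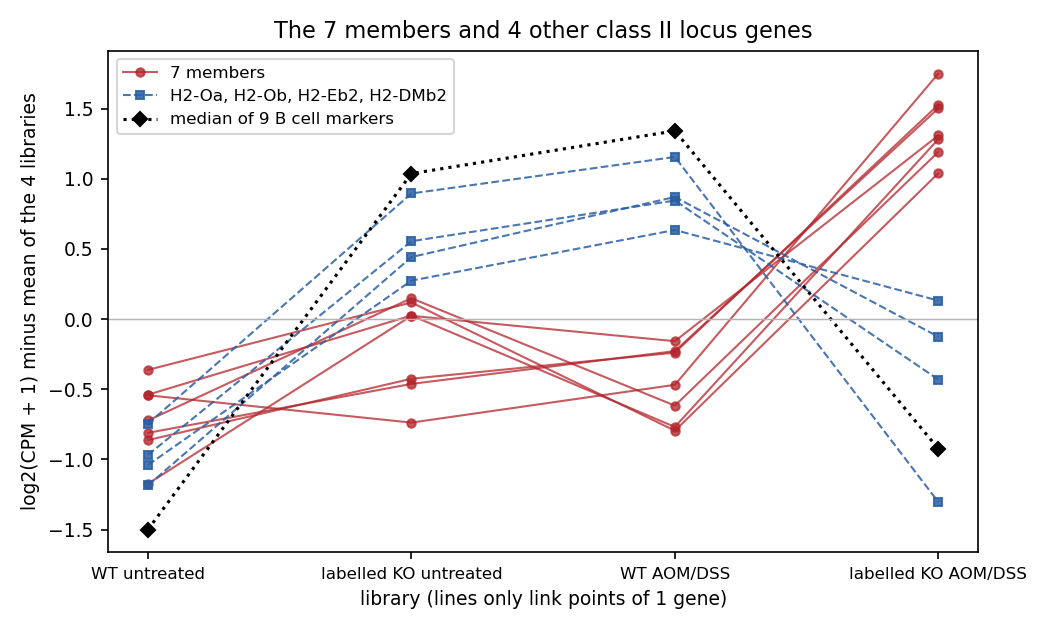
Level of each gene as log2(CPM + 1) minus its own mean over the 4 libraries, for the 7 genes (solid lines), 4 other class II locus genes (dashed) and the median of 9 B cell markers (dotted). The solid lines end highest, in the AOM/DSS library labelled knockout, while the dashed lines peak in WT AOM/DSS.

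Along the locus from H2-Oa to H2-Ea-ps (chromosome 17, 34092340 to 34344645), 14 of 15 genes in the table had enough counts in the AOM/DSS pair. By the rule, 9 of these were higher under the label and 2 lower, where 11.9% of 15779 genes were higher and 12.4% lower. The same shares apply to the gene lists counted in that pair below. Beside the 5 members, the higher ones were the class I loading genes Tap1 (6.14-fold), Psmb9 (3.96-fold), Psmb8 (3.55-fold) and Tap2 (2.48-fold), which lie between H2-DMb1 and H2-Ob. Brd2, which overlaps H2-DMa, stood at 278, 226, 249.7 and 253 CPM, so its level did not follow that of H2-DMa.

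Upstream of Ciita, Ifng and Socs1 passed the rule as higher in the AOM/DSS pair. Ifng itself, the cytokine of T and NK cells, had 1 count in untreated WT, 0 in the untreated library labelled knockout, 8 in WT AOM/DSS and 101 in the AOM/DSS library labelled knockout, which was 8.69-fold above WT AOM/DSS (4.25 to 20.7). Socs1, its feedback inhibitor, stood at 1.63, 1.66, 2.06 and 6.57 CPM, with a ratio of 3.18 between the AOM/DSS libraries (2.30 to 4.50). In that pair Irf1, a transcription factor that binds the Ciita promoter, was 1.82-fold higher and the receptor chain Ifngr1 1.81-fold lower, both under the rule. All 14 interferon gamma induced genes were higher there, led by Ido1 (53.8-fold), Cxcl9 (38.3-fold), Gbp2 and Gbp6 (both 31.2-fold). Their summed level was 356, 239, 271 and 4982 CPM. Ciita stood at over 2-fold its untreated WT level in the untreated library labelled knockout and in WT AOM/DSS, where this sum was below its untreated WT value. The B cell marker sum in the same libraries was 127 and 162 CPM, against 12.8 in untreated WT. The part of either list in the level of Ciita was not tested.

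The factors that bind class II promoters differed less. Of 7 such genes, 0 passed the rule in the AOM/DSS pair (median log2 ratio 0.35), with Rfx5, the DNA-binding subunit of RFX, at 22.9, 20.7, 22.2 and 40.6 CPM and 1.83-fold higher, Nfyb 1.45-fold, Creb1 1.42-fold and Rfxank 1.36-fold lower. Rfxank, the ankyrin subunit, stood at 17.1, 35.1, 22.4 and 16.4 CPM, highest in the untreated library labelled knockout. Endosomal proteases and the reductase Ifi30, which prepare peptides, held 0 of 8 past the rule in that pair (median 0.40). Ctss, the protease that trims the invariant chain, stood at 258, 391, 325 and 558 CPM, 1.71-fold higher, with Ctsz, Ctsd and Ctsh at 1.53-fold, 1.47-fold and 1.45-fold. Among 6 costimulatory genes, 5 were measured and 3 higher: Cd40 (3.76-fold), Tnfsf9 (2.68-fold) and Cd86 (2.39-fold), a ligand of CD28. March1, a ligase that removes class II from the surface, could not be read, since 2 rows had both been turned into the same date.

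MHC class I genes were higher in the same library, 9 of 10 by the rule in the AOM/DSS pair (median 1.42, against 1.81 for the 7 class II genes). Nlrc5, the class I counterpart of Ciita, stood at 33.2, 19.8, 33.9 and 223 CPM and was 6.59-fold higher. Among untreated libraries Nlrc5 was lower under the label while Ciita was higher, and in the WT pair Nlrc5 was level; with 1 library per group that contrast was not tested.

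Of the marker lists for antigen-presenting cells, the macrophage list was higher where the 7 genes were highest, the dendritic list was mostly within the rule and the B cell list was lower. The summed level of the 7 was 1192 CPM in untreated WT, 1735 in the untreated library labelled knockout, 1182 in WT AOM/DSS and 4614 in the AOM/DSS library labelled knockout. For 12 macrophage and monocyte markers the sums were 613, 722, 602 and 1776 CPM, with 10 of 12 higher and 1 lower in the AOM/DSS pair (median 1.65), led by Fcgr1 (7.59-fold) and Ly6c2 (6.62-fold). The lower one was Mertk, at 70.5, 64.9, 84.8 and 37.2 CPM. The sum of the 7 over the macrophage sum was 1.95, 2.40, 1.96 and 2.60, a range of 1.34-fold. The range was 23.8-fold for the ratio to B cell markers and 2.53-fold for the ratio to 5 pan-leukocyte markers. It was 1.87-fold for MHC class I genes, 2.60-fold for costimulatory genes and 2.97-fold for dendritic cell markers. Of the macrophage sum, Lyz2 alone held 193, 266, 239 and 751 CPM in the same order of libraries. The pan-leukocyte sum itself was 178, 306, 404 and 624 CPM, higher in WT AOM/DSS than in untreated WT, where the class II sums were 1182 and 1192 CPM. Fewer cells of a type and less RNA per cell cannot be told apart in tissue RNA.

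Dendritic cell markers were sparse. Of 12, 7 had enough counts in the AOM/DSS pair and 1 was higher, Itgax (5.35-fold), an integrin that macrophages also carry. Flt3, Xcr1, Clec9a and Zbtb46, which define conventional dendritic cells, stood at 0.459 to 4.36 CPM in all libraries, and no marker of the list was at 0. All 12 markers of the list summed to 126, 152, 159 and 209 CPM. Of this, Irf8 held 89.9, 101, 121 and 105 CPM and Itgax 14.0, 22.9, 13.9 and 74.3 CPM. Flt3, Xcr1, Clec9a and Zbtb46 were each lower in the AOM/DSS library labelled knockout than in untreated WT. Against WT AOM/DSS, Flt3 and Zbtb46 were lower there and Xcr1 and Clec9a higher. Pan-epithelial markers summed to 10426, 12112, 12755 and 9240 CPM, with 1 of 8 higher in the AOM/DSS pair, Krt18. T cell markers summed to 40.9, 48.5, 72.7 and 96.6 CPM and had 0 of 8 past the rule in that pair, and group 3 innate lymphoid markers to 192, 165, 143 and 67.6 CPM. Which cells carried the class II transcripts was not measured, and the part of each marker list in the result was not tested.

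**Figure D4:**
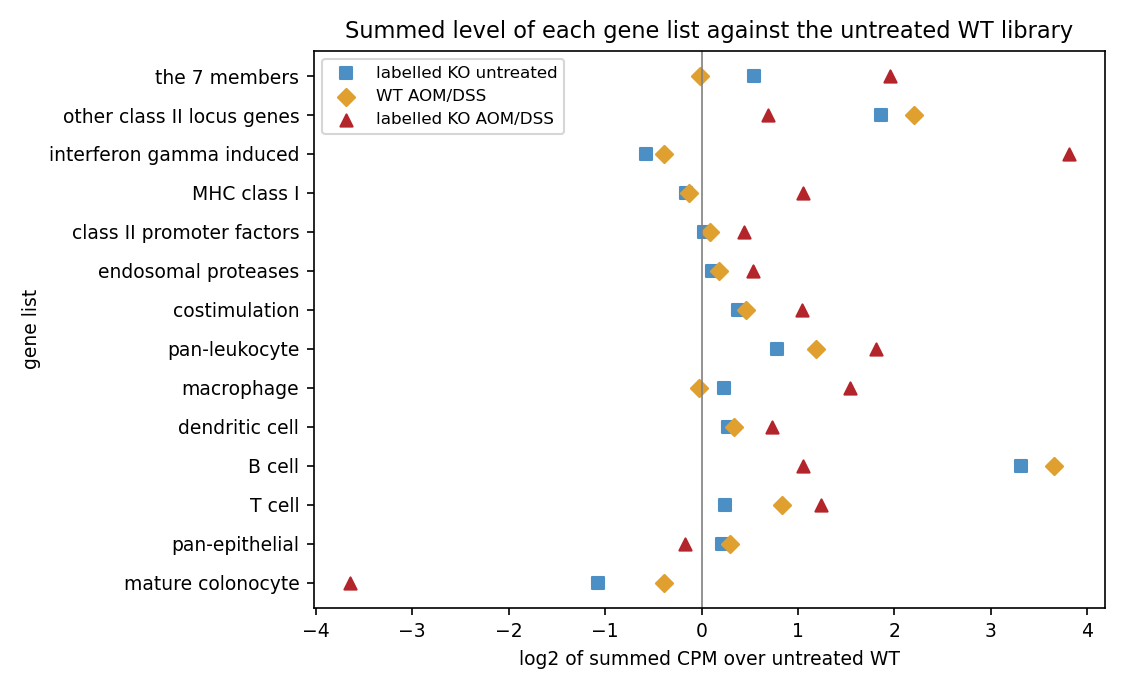
Log2 of the summed CPM of each gene list over its sum in the untreated WT library, with 1 point for each of the other 3 libraries. The 7 genes and the macrophage markers share their order of libraries, while B cell markers and the other class II locus genes are highest in WT AOM/DSS.

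Likeness to the median profile of the 7 was measured as the root mean square distance of centred log2(CPM + 1) values over the 4 libraries, among 15152 genes with at least 200 counts in all. The nearest genes outside the group were Cmtm7 (distance 0.08), Abcc4 (0.08), H2-M2 (0.10), Macc1 (0.10), Basp1 (0.11), Pkhd1 (0.12), Slain1 (0.12) and Slc41a1 (0.12). Cmtm7, a membrane protein, stood at 9.72, 15.1, 10.8 and 42.8 CPM, and H2-M2, a nonclassical class I gene of the MHC, at 1.23, 2.99, 1.51 and 7.17 CPM. Of the members, Cd74 lay closest to their median (0.11, rank 5 of 15152) and H2-Aa farthest (0.45, rank 837), the latter through its low value in the untreated library labelled knockout. With 4 points per gene, likeness describes these libraries only.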

How the data were processed

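The authors deposited raw read counts per gene symbol as whole numbers, without normalization, for 4 colon libraries made with the Ion Proton RNA-Seq kit from TRIzol RNA, per the labels' protocols. Per the submitters' processing notes, GRCm38 (mm10) was the build. Aligner, counting tool, annotation and use of strand: not given in the sources used here. Of 44788 rows, 27 had a symbol turned into a date and were not named. Groups follow the labels, with 1 library each, so no pair of libraries was tested and intervals (exact Clopper-Pearson, conditional on both counts, 95%) cover counting error alone; without molecular identifiers, PCR copies count as separate reads.

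TMM factors from edgeR 4.0.16 (R 4.3.3) turned the counts into CPM. Ratios used a pseudocount of 1 CPM and printed folds none, and where a count was 0 the floor was 3 counts. The additive fit used filterByExpr and a robust fit, adjusted by Benjamini-Hochberg, and steps were tested on simulated data. DESeq2 1.42.0 and other scalings, pseudocounts, minimums, thinning and removal of genes above 1% of a library were alternatives. Positions and transcript lengths came from GENCODE M21 and promoters from RefSeq (GRCm38.p6). Named genes were the 7 members, Card9, up to 4 genes per pathway list with the largest ratio in the AOM/DSS pair, H2-Ea-ps, H2-DMb2, Ifng and the 8 nearest profiles; other marker genes, Brd2, Tap2, Ifngr1 and Nlrc5 beside them were in the lists or locus. The members and lists were chosen with earlier results of these data known. A result of the interferon gamma pathway list is not reported here.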

Additional observations from a re-analysis of the deposited data

Results flagged for a closer look

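The AOM/DSS response of 2 of the 7 genes went in opposite directions under the labels. H2-Ab1 was 1.17-fold lower after AOM/DSS in WT and 2.39-fold higher in the libraries labelled knockout, a difference of 1.49 on the log2 scale (95% counting interval 1.42 to 1.56). H2-Eb1 was 1.35-fold lower and 1.90-fold higher, a difference of 1.36 (1.28 to 1.44). With 1 library per group the difference was not tested. For Ciita the difference was 0.24 (-0.00 to 0.48), with both responses upward. H2-Aa, also upward in both, had the largest difference of the 7 genes, at 2.42 (2.35 to 2.48).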

How the results depend on the processing

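The 28 log2 ratios of the 7 genes in 4 pairs kept their direction under all 9 alternatives, and 209 of 252 values stayed within counting error. Scaled by library totals, the members' median became 0.0401 (AOM/DSS over untreated, WT), 1.58 (the same, labelled knockout), 0.39 (label over WT, untreated) and 2.08 (AOM/DSS), and the median difference of the responses 1.72 against 1.35. Library totals moved the median of all genes to 0.30 and 0.28 in the pairs that hold the AOM/DSS library labelled knockout, from 0.03 in both. DESeq2 size factors gave a median of 1.86 and upper-quartile factors 1.75 in the AOM/DSS pair, and DESeq2 factors a difference of 1.45. Members past 2-fold in WT numbered 0 with DESeq2 factors, library totals or 5 CPM, and 0 in the untreated pair with 5 CPM. The additive fits called 70 genes higher and 11 lower (treatment) and 50 and 12 (label) without a filter, and 209 and 127, 102 and 153 with DESeq2; the cause was not tested. H2-DMb2 in the pair labelled knockout ran from -0.19 to 0.12. No paired analysis was possible because each group holds 1 library and the labels give no replicate numbers. Depth limits genes with under 50 counts in at least 1 library, among them H2-Ea-ps, H2-Eb2, H2-Oa, H2-M2, Ifng, Socs1, Ido1, Tnfsf9, Card9, Hoxa13, Hoxb13, Flt3, Xcr1 and Clec9a.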
